A study of Homo sapiens with 21 samples.

Results

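The genes described here were 10 genes of the G1/S step of the cell cycle: the D-type cyclins CCND1, CCND2 and CCND3, the E-type cyclins CCNE1 and CCNE2, the transcription factors E2F1, E2F2 and E2F8, and the pocket proteins RB1 and RBL1. They were taken by symbol from a table of 58735 genes, and 1 row carried each symbol. The table came from RNA-seq of MDA-MB-453 cells, an established human breast cancer line, in a study that asked whether calcium and cadmium act through the estrogen-related receptor ESRRB. Each of the 7 groups had 3 libraries. Cells were left as control, or were treated for 24 h with 10 mM calcium, 10 µM cadmium, 5 µM GSK4716 (an ESRRB agonist), 10 µM DES (diethylstilbestrol, an ESRRB antagonist), DES with calcium, or DES with cadmium at the same doses. In the combined groups, DES was added 3 h before the metal. All cells were of this 1 line. The labels place calcium and GSK4716 in medium without serum and cadmium where charcoal-stripped serum was present, whereas there was a single control group, so for at least 1 treatment the medium and the agent cannot be told apart. GSK4716 combined with DES was not analysed here.

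D-type cyclins bind CDK4 and CDK6 in early G1, and these kinases phosphorylate RB1 and its relative RBL1 (p107), which hold E2F factors inactive on promoters. E2F1 and E2F2 then switch on the genes of DNA replication together with CCNE1 and CCNE2, whose products bind CDK2 and phosphorylate the pocket proteins further. E2F8 is an atypical E2F that represses E2F target genes later in the cycle, and RBL1, E2F8 and the E2F1 and E2F2 genes are themselves E2F targets.

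Expression was measured as FPKM, fragment counts scaled by gene length and library size, which allows levels of different genes to be set side by side. This library size was 1.08 to 1.15 times the fragments on genes in control, 1.01 to 1.06 with calcium, 1.00 to 1.12 with cadmium and 1.10 to 1.13 with GSK4716. It was 0.91 to 1.05 times with DES, 0.86 to 0.94 with DES and calcium and 0.69 to 0.96 with DES and cadmium. Set against control, FPKM of the DES groups was thus higher than the share of fragments on genes would give. Libraries held 14435925 to 28424805 fragments on genes, with a median of 18314738. Cadmium replicate 3 and DES with cadmium replicate 2 stood apart from the other 19 libraries in their G2/M genes: the median log2(FPKM + 0.1) of 12 G2/M genes was -1.85 and -0.75 in these 2 libraries, against 2.62 to 4.83 in the others. DES with cadmium replicate 1 differed in other ways: it had 16605 genes above 0, the fewest of the 21 libraries, the highest summed FPKM (476599, against 268326 to 364778 in the others) and a mean correlation with its own group of 0.875, the lowest, beside 0.876 for replicate 2. Results for cadmium that rest on one of these 3 libraries are therefore also given without it. The metal labels were checked with the metallothionein MT2A, which was at 2001 to 4088 FPKM with cadmium and 1840 to 10176 FPKM with DES and cadmium, against 24.1 to 92.7 FPKM in control, 297 to 792 FPKM with DES and 342 to 1117 FPKM with DES and calcium. The 7 epithelial and luminal markers (FOXA1, ERBB2, SPDEF, XBP1, KRT8, KRT18 and EPCAM) were at 50.9 FPKM or higher in every library, and the leukocyte marker PTPRC, the endothelial marker PECAM1, the basal marker KRT5 and the hepatocyte marker ALB were at 0.699 FPKM or lower. The fibroblast marker COL1A1 was at 10.5 to 12.0 FPKM in control, 14 to 17.1 with calcium, 9.97 to 14.5 with cadmium, 9.74 to 12.0 with GSK4716, 12.5 to 32.7 with DES, 9.34 to 16.7 with DES and calcium and 9.69 to 28.3 with DES and cadmium. Its calcium and DES libraries thus lay above all control libraries, and its part in the calcium and DES results was not tested. The share of fragments on mitochondrial genes was 7.70% to 8.19% in control and 4.88% to 7.55% with calcium, all below control, 7.36% to 9.75% with cadmium, and 8.20% to 8.84% with GSK4716, all above it. It was 3.47% to 4.96% with DES, 4.34% to 5.17% with DES and calcium and 1.97% to 5.31% with DES and cadmium, all below control, and its part in the results was not tested. The labels do not say that replicates came from separate cultures, so p-values measure the spread between these libraries, which may be technical.

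The promoter sequences of E2F1, E2F2 and RBL1 are shown because these genes are both members of the pathway and targets of it. RefSeq promoter windows, 250 bases before to 50 after a gene start on GRCh38.p14, were found for 6 of the 10 genes (E2F1, E2F2, RBL1, CCNE1, CCND3 and RB1) and were not found for CCND1, CCND2, CCNE2 and E2F8. Each sequence below is the 250 bases before the start, 5′ to 3′ on the strand of the gene, with capitals marking a match to the E2F letters TTTCCCGC, TTTCGCGC, TTTGCCGC or TTTGGCGC on either strand. They lie at chr20:33686386-33686635 (minus strand, E2F1), chr1:23531234-23531483 (minus strand, E2F2) and chr20:37095998-37096247 (minus strand, RBL1). Positions are relative to the RefSeq start, and the last 19 bases of the E2F1 sequence lie within the span that the deposited table gives for E2F1.
E2F1: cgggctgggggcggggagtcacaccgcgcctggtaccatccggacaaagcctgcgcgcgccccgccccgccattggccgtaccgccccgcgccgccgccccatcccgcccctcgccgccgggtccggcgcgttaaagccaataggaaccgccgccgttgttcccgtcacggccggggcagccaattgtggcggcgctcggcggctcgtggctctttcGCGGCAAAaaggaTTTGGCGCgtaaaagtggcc
E2F2: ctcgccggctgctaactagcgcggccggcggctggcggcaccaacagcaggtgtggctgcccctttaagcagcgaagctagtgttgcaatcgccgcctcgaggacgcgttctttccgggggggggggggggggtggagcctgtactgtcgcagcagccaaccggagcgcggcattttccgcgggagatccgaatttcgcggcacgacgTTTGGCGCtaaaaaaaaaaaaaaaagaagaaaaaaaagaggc
RBL1: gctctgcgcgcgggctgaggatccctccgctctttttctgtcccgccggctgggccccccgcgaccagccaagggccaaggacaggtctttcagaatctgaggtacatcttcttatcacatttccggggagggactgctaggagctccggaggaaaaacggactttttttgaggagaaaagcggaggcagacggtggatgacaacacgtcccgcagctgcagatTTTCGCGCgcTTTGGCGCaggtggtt
E2F1 held the letters TTTGCCGC on the opposite strand, at -33 to -26 from the start, and TTTGGCGC at -20 to -13. In the E2F2 promoter TTTGGCGC lay at -42 to -35, and the RBL1 promoter held TTTCGCGC at -26 to -19 and TTTGGCGC at -16 to -9. The 8 windows of the 6 genes held a match in 3 cases, 1 each for E2F1, E2F2 and RBL1, where 3.31% of all 35116 windows of the same length did. The letters TNAAGGTCA, a form of the site that estrogen-related receptors are known to bind, were in 0 of the 8 windows and in 0.951% of all windows. The only window of RB1 lay at a start 172724 bases inside the gene and the 3 windows of CCND3 at starts 1669 to 111152 bases inside it, so the outer starts of these genes were not searched. Such matches describe letters in a window and do not show binding.

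Among the 10 genes, CCND1 was the most abundant transcript by a wide margin, and the E-type cyclins and RBL1 were among the least. Over the 21 libraries, the mean was 139.7 FPKM for CCND1, 26.5 for E2F1, 14.4 for CCND3, 11.4 for RB1, 3.87 for E2F2, 2.74 for CCNE2, 2.21 for E2F8, 1.92 for RBL1 and 1.44 for CCNE1. These 9 genes passed the filter of a mean of at least 0.5 FPKM and were tested among 14686 genes. CCND2 did not pass. It had 0 fragments in 15 libraries, which allows up to 3 fragments in each, and 1 to 15 fragments in the other 6, with 15 in calcium replicate 2 and 7 in DES replicate 2. CCND2 was left out of the tests below, and its FPKM, at most 0.120, is part of the D-type sums.

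**Figure D1:**
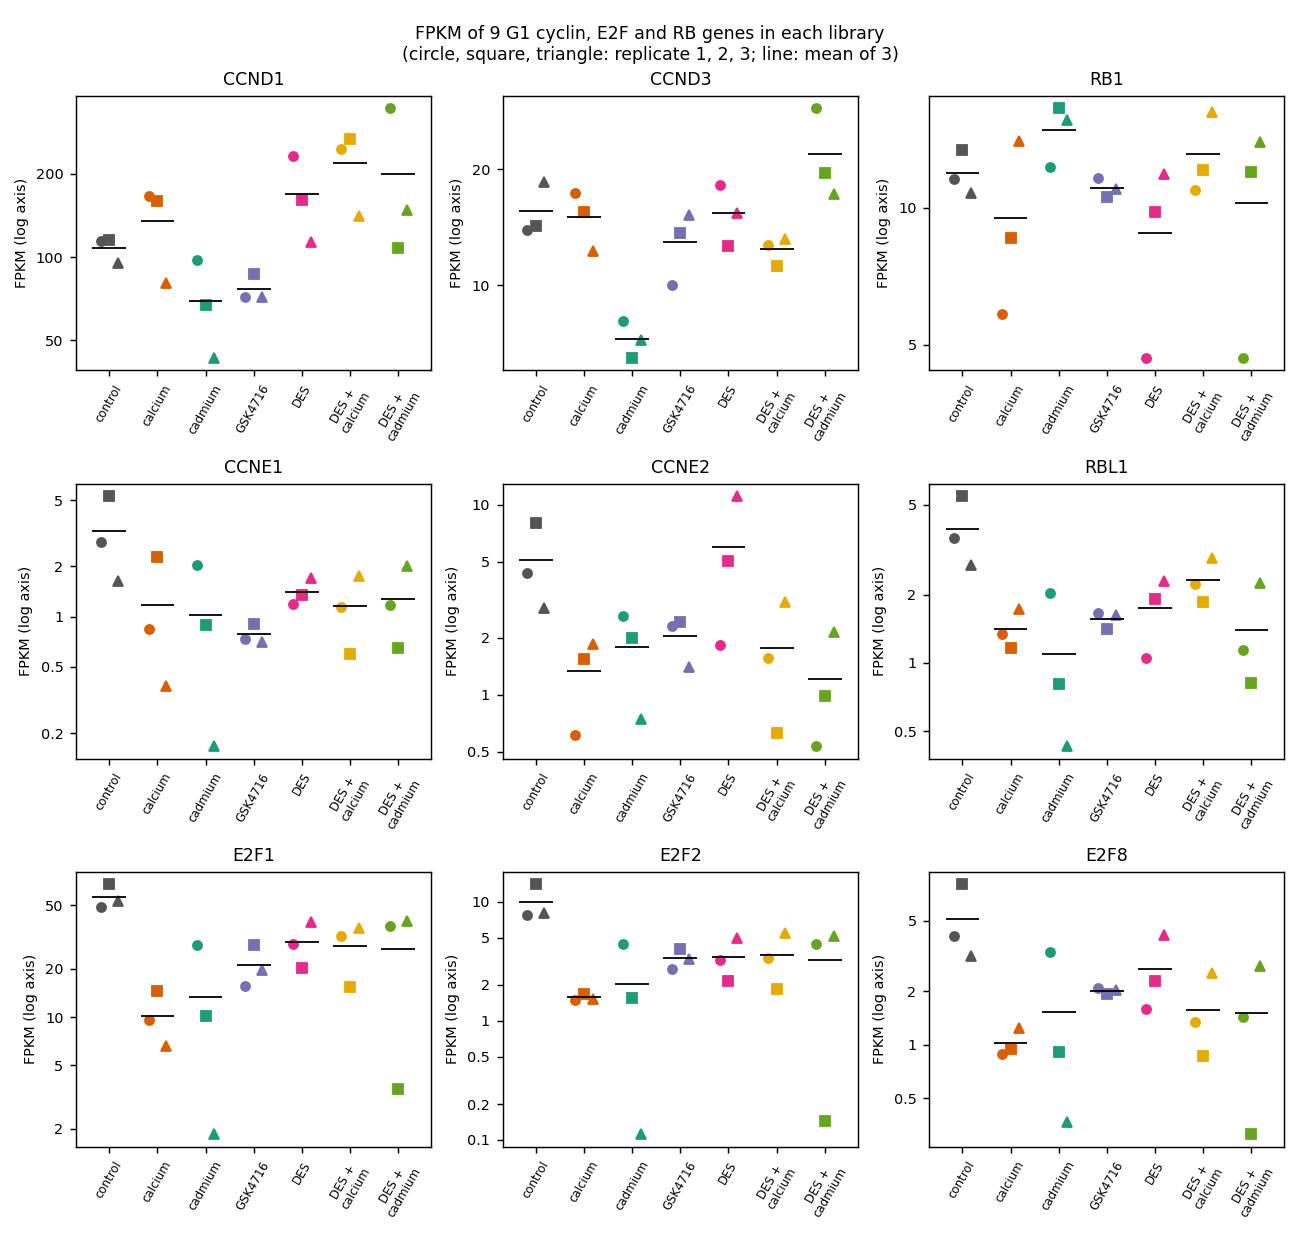
FPKM on a log axis of the 9 tested genes in each library, with circle, square and triangle for replicates 1, 2 and 3 and a line for the mean of 3. E2F1 sat at 48.7 to 67.6 FPKM in control and at 6.60 to 14.5 FPKM with calcium, and CCND3 at 6.47 to 8.09 FPKM with cadmium.

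CCND1, which encodes the cyclin D1 protein and lies at chr11:69641087-69654474 on the plus strand, was read at 114, 115 and 95.4 FPKM in the control libraries, replicates 1, 2 and 3. It was at 166, 159.7 and 80.7 FPKM with calcium, at 98.0, 67.2 and 43.2 with cadmium, and at 71.6, 86.6 and 72.1 with GSK4716. All 3 GSK4716 libraries lay below all control libraries, while the calcium and cadmium libraries overlapped with control. In the DES groups CCND1 reached its highest levels, with 233, 161 and 113 FPKM with DES, 246, 268 and 141 with DES and calcium, and 346, 108 and 148 with DES and cadmium. Replicate 1 was the highest of the 3 in DES and in DES with cadmium, and these groups overlapped with control through replicate 3 and replicate 2. The gene LTO1, on the opposite strand, overlaps the end of CCND1 and was at 1.94 FPKM on average.

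CCND3, encoding cyclin D3 at chr6:41934933-42050357 on the minus strand, was at 13.9, 14.2 and 18.6 FPKM in control and at 8.09, 6.47 and 7.18 FPKM with cadmium. The cadmium libraries were the 3 lowest of all 21 libraries. With calcium it was at 17.4, 15.5 and 12.2 FPKM, with GSK4716 at 9.99, 13.7 and 15.2, and with DES at 18.2, 12.6 and 15.4, and these 3 groups overlapped with control. With DES and calcium it was at 12.7, 11.2 and 13.2 FPKM, and with DES and cadmium at 28.8, 19.5 and 17.3 FPKM, so that the libraries with cadmium and DES lay above all libraries with cadmium alone. Within the summed FPKM of the 3 D-type cyclins, CCND1 made up 82.5% to 96.0% in every library, with a median of 89.6%, and the D-type sum was thus mostly CCND1 whichever agent was given.

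CCNE1, at chr19:29811898-29824308 on the plus strand, was low throughout and rested on 7 to 284 fragments a library. Control libraries had 2.81, 5.27 and 1.64 FPKM, calcium libraries 0.843, 2.29 and 0.385, cadmium libraries 2.03, 0.887 and 0.167, and GSK4716 libraries 0.731, 0.906 and 0.708. The GSK4716 libraries all lay below control, and the calcium and cadmium libraries overlapped with it through 1 library each. With DES it was at 1.20, 1.34 and 1.70 FPKM, with DES and calcium at 1.14, 0.598 and 1.76, and with DES and cadmium at 1.17, 0.651 and 2.01, without separation between these 3 groups.

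CCNE2, the other E-type cyclin gene, at chr8:94879770-94896678 on the minus strand, was at 4.38, 8.01 and 2.88 FPKM in control. It was at 0.611, 1.55 and 1.85 with calcium, at 2.60, 2.00 and 0.747 with cadmium, and at 2.31, 2.42 and 1.40 with GSK4716. All 9 of these treated libraries lay below all 3 control libraries. The DES libraries spanned 1.83, 5.03 and 11.1 FPKM, the widest spread of any group for this gene, and adding calcium to DES gave 1.55, 0.631 and 3.09, and adding cadmium 0.537, 0.984 and 2.13. The gene overlaps INTS8, NDUFAF6 and the antisense transcript AC087752.4 on the opposite strand, and the sources give the strandedness of the libraries in more than 1 way, so its fragments cannot be wholly assigned. AC087752.4 was itself at 0.478, 4.39 and 8.62 FPKM in DES replicates 1, 2 and 3, high in the same 2 libraries as CCNE2. Whether this transcript takes part in the CCNE2 values was not tested.

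E2F1, the activator E2F at chr20:33675683-33686404 on the minus strand, was at 48.7, 67.6 and 53.5 FPKM in control. Calcium libraries had 9.54, 14.5 and 6.60 FPKM, cadmium libraries 28.3, 10.1 and 1.85, and GSK4716 libraries 15.7, 28.2 and 19.7. Every library of these 3 treatments lay below every control library, and cadmium replicate 3 was the lowest of all 21. DES libraries were also below control, at 28.8, 20.4 and 39.6 FPKM. Adding calcium to DES gave 32.3, 15.5 and 36.0 FPKM and adding cadmium 37.0, 3.54 and 39.8, both overlapping with DES alone, with the low value in DES with cadmium in replicate 2.

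E2F2, also an activator E2F, at chr1:23506430-23531220 on the minus strand, was at 7.80, 13.9 and 8.02 FPKM in control. It was at 1.5, 1.69 and 1.52 FPKM with calcium, 4.44, 1.54 and 0.111 with cadmium, and 2.72, 3.97 and 3.31 with GSK4716, all below control. The 3 calcium libraries differed little from each other, whereas the cadmium libraries spanned a range from 4.44 down to 0.111, the latter from 10 fragments. DES libraries were at 3.26, 2.15 and 4.96 FPKM, DES with calcium at 3.37, 1.86 and 5.44, and DES with cadmium at 4.39, 0.145 and 5.14.

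E2F8, the atypical E2F at chr11:19224063-19241620 on the minus strand, was at 4.10, 8.03 and 3.17 FPKM in control. The calcium libraries, at 0.887, 0.953 and 1.25, and the GSK4716 libraries, at 2.09, 1.93 and 2.05, lay below it, and the cadmium libraries, at 3.32, 0.914 and 0.367, overlapped through replicate 1. In the 3 DES groups it was at 1.59, 2.30 and 4.16 with DES, 1.34, 0.871 and 2.54 with DES and calcium, and 1.44, 0.314 and 2.77 with DES and cadmium, and these groups overlapped.

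RB1, the retinoblastoma gene at chr13:48303726-48599436 on the plus strand, had the narrowest range of the 9 tested genes over the 21 libraries, 1.81 log2 units. It was at 11.6, 13.4 and 10.8 FPKM in control, 5.83, 8.60 and 14 with calcium, 12.3, 16.6 and 15.6 with cadmium, and 11.7, 10.6 and 11.0 with GSK4716. With DES it was at 4.68, 9.79 and 11.9 FPKM, with DES and calcium at 11.0, 12.1 and 16.3, and with DES and cadmium at 4.67, 12.0 and 14. No group lay wholly below or above control in the 4 comparisons with control, and the lowest values were in replicate 1 of DES and of DES with cadmium.

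RBL1, which encodes p107 at chr20:36996349-37095995 on the minus strand, was at 3.57, 5.45 and 2.71 FPKM in control, 1.34, 1.16 and 1.73 with calcium, 2.03, 0.809 and 0.429 with cadmium, and 1.66, 1.41 and 1.64 with GSK4716. All of these treated libraries lay below control, as did those with DES, at 1.05, 1.91 and 2.30 FPKM. With DES and calcium it was at 2.24, 1.86 and 2.90, and with DES and cadmium at 1.14, 0.812 and 2.26, again overlapping with DES alone.

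Calcium was followed by lower levels of the 3 E2F genes, while the D-type cyclins and RB1 did not pass the test. In this comparison E2F1 fell 5.72-fold (log2 fold change of FPKM + 0.1 of -2.52, SE 0.30, adjusted p = 0.0126), E2F2 fell 5.79-fold (-2.53, SE 0.26, adjusted p = 0.0102) and E2F8 fell 4.30-fold (-2.10, SE 0.37, adjusted p = 0.0296), by limma with Benjamini-Hochberg adjustment over 14686 genes and n = 3 in each group. Fold changes on this scale understate the change of low genes. RBL1 (-1.37, SE 0.31, adjusted p = 0.0535) and CCNE2 (-1.86, SE 0.52, adjusted p = 0.0923) had all calcium libraries below control and did not pass, nor did CCNE1 (-1.55, adjusted p = 0.241). Both RBL1 and CCNE2 passed with quantile normalization (adjusted p = 0.0269 and 0.0437) and by limma-voom (adjusted p = 0.0146 and 0.0280). RBL1 also passed with scaling by total fragments on genes (adjusted p = 0.0497). The differences were 0.26 for CCND1, with a 95% interval of -0.47 to 0.99, -0.05 for CCND3 (-0.50 to 0.40) and -0.41 for RB1 (-1.18 to 0.36), so that changes of the size seen for E2F1 lay outside these intervals. Thus 3 of 9 tested genes were called lower, where 2.53% of all genes tested were, and 5 of 9 had all calcium libraries below control, where 13.6% of all genes did. At an unadjusted p under 0.05, 5 of 9 were lower, against 10.3% of all genes. The median difference of the 9 genes was -1.55, against -0.01 over all genes. In bulk RNA, fewer cells in a phase of the cycle and less of a transcript per cell cannot be told apart. CCNE1, CCNE2 and RBL1 are in a list of genes that the study itself picked from these libraries as lower with calcium, cadmium and GSK4716, so their direction is not independent evidence. E2F1 missed the threshold without control replicate 1 (adjusted p = 0.0626) and without control replicate 2 (adjusted p = 0.0657), and E2F2 without control replicate 1 (adjusted p = 0.056). E2F8 missed it without control replicate 1 (adjusted p = 0.114), control replicate 2 (adjusted p = 0.0756) or calcium replicate 1, 2 or 3 (adjusted p = 0.0841, 0.0936 and 0.0563). With all 7 groups in 1 fit, or with no filter on low values, 0 of the 9 genes passed. An exact permutation test of 3 against 3 libraries cannot go below 0.1.

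**Figure D2:**
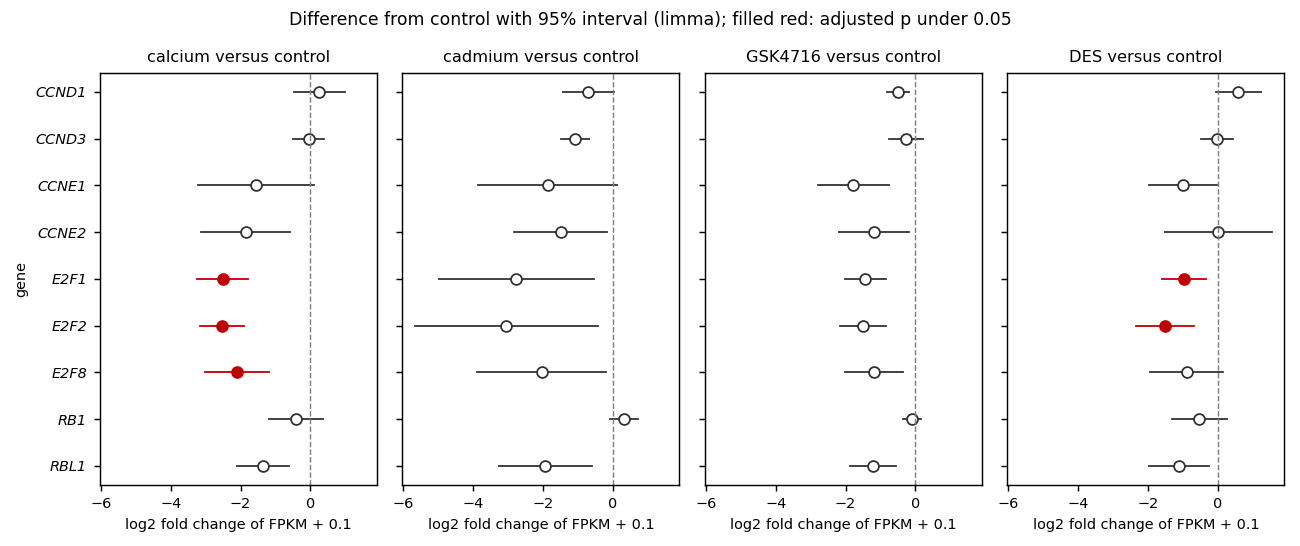
Log2 fold change of FPKM + 0.1 against control, with 95% intervals from limma, for 9 genes in 4 comparisons, with filled red points for an adjusted p under 0.05. With calcium E2F1, E2F2 and E2F8 are filled, with DES E2F1 and E2F2, and with cadmium and GSK4716 none, although most intervals lie below 0.

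With cadmium the 3 E2F genes had low means with a wide spread between libraries, and the smallest adjusted p of the 9 genes was that of CCND3. The CCND3 level was 2.12-fold lower on average (-1.08, SE 0.17, adjusted p = 0.0590), and its 3 cadmium libraries lay close together. E2F1 (-2.76, SE 0.92, adjusted p = 0.138), E2F2 (-3.05, SE 1.08, adjusted p = 0.152), RBL1 (-1.94, SE 0.55, adjusted p = 0.111) and CCNE2 (-1.50, SE 0.55, adjusted p = 0.161) also had no cadmium library as high as the lowest control library. The E2F8 difference was -2.03 (adjusted p = 0.165), that of CCNE1 -1.87 (adjusted p = 0.211), that of CCND1 -0.71 (adjusted p = 0.2005) and that of RB1 0.31, with an interval of -0.09 to 0.71. By limma 0 of the 9 genes passed, 6 were lower at an unadjusted p under 0.05 and limma-voom on recovered fragments called 1, CCND3, where it called 1.66% of all genes lower. Over all genes tested, 0.0204% were called lower and 12.4% were lower at an unadjusted p under 0.05. The groups did not overlap for 5 of 9 genes, all lower, where 16.7% of all genes did so. Without cadmium replicate 3, one of the libraries that stood apart, the differences were -1.72 for E2F1, -1.82 for E2F2, -1.47 for RBL1, -1.37 for E2F8, -1.08 for CCND3, -1.05 for CCNE1, -1.0 for CCNE2, -0.41 for CCND1 and 0.26 for RB1. In that fit 0 genes passed, 4 of 9 were lower at an unadjusted p under 0.05, where 11.6% of all genes were, and 5 of 9 were lower with groups that did not overlap, where 20.7% of all genes were. Without cadmium replicate 1, the cadmium library with the highest E2F1 level, 4 genes passed: E2F1 (-3.65, adjusted p = 0.0433), E2F8 (-2.81, adjusted p = 0.0426), RBL1 (-2.48, adjusted p = 0.0349) and CCND3 (-1.17, adjusted p = 0.032). In that fit 5.50% of all genes were called lower.

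With GSK4716, 7 of the 9 genes had every treated library below control and none passed the adjusted threshold. E2F1 was 2.71-fold lower on average (-1.44, SE 0.24, adjusted p = 0.139) and E2F2 2.84-fold lower (-1.51, SE 0.27, adjusted p = 0.142). CCNE1 (-1.78, adjusted p = 0.172), RBL1 (-1.21, adjusted p = 0.168), E2F8 (-1.18, adjusted p = 0.201), CCNE2 (-1.19, adjusted p = 0.25) and CCND1 (-0.50, SE 0.13, adjusted p = 0.191) also had all GSK4716 libraries below control. CCND3 (-0.27, interval -0.75 to 0.21) and RB1 (-0.10, interval -0.36 to 0.16) overlapped with control. By limma 0 of the 9 genes passed, as did 0% of all 14686 genes, while 7 of 9 were lower at an unadjusted p under 0.05, where 8.69% of all genes were, and limma-voom on recovered fragments called 2, where it called 0.313% of all genes lower. The same 7 genes had groups that did not overlap, where 11.5% of all genes were lower in this way. The calcium, cadmium and GSK4716 comparisons share the 3 control libraries, so they are not independent of each other.

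DES alone was followed by lower E2F1 and E2F2. E2F1 fell 1.96-fold (-0.97, SE 0.26, adjusted p = 0.0320) and E2F2 fell 2.86-fold (-1.52, SE 0.35, adjusted p = 0.0198). RBL1 had all DES libraries below control and did not pass (-1.12, SE 0.37, adjusted p = 0.0572), while it passed with quantile normalization (adjusted p = 0.0219) and by limma-voom (adjusted p = 0.0269). The difference was -1.0 for CCNE1 (adjusted p = 0.108), -0.90 for E2F8 (adjusted p = 0.164), 0.59 for CCND1 (interval -0.06 to 1.23), -0.53 for RB1 (interval -1.33 to 0.26), -0.02 for CCND3 (interval -0.48 to 0.45) and 0.01 for CCNE2 (interval -1.52 to 1.54). Called lower were 2 of 9 genes against 12.9% of all genes tested, 4 of 9 were lower at an unadjusted p under 0.05 against 19.4%, and non-overlapping and lower were 3 of 9 against 22.9%, so the members' counts lay near the background of this comparison. E2F1 missed the threshold without control replicate 1, 2 or 3 (adjusted p = 0.0704, 0.11 and 0.0752) or DES replicate 1 or 2 (adjusted p = 0.0532 and 0.086). E2F2 missed it without control replicate 2 (adjusted p = 0.0689) or DES replicate 2 (adjusted p = 0.0593). With all 7 groups in 1 fit, or with no filter, 0 passed. CCNE1 passed without control replicate 3 (-1.40, adjusted p = 0.044) and CCND1 without DES replicate 3 (0.84, adjusted p = 0.0416).

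The difference between the calcium effect without and with DES passed the test for E2F1 and E2F2, and adding calcium to DES gave no called change in any of the 9 genes. DES with calcium against DES gave -0.12 for E2F1 (interval -1.06 to 0.82), -0.01 for E2F2 (interval -1.14 to 1.13), -0.74 for E2F8 (interval -1.95 to 0.47) and 0.43 for RBL1 (interval -0.43 to 1.30). CCNE2 had the largest difference, -1.61 (SE 0.78, adjusted p = 0.426), and the other 4 genes lay between -0.36 and 0.65. By limma 0 of 9 genes passed, 0 were past an unadjusted p of 0.05, limma-voom called 0, and 0 had groups that did not overlap. Of all genes, 0.136% were called lower, 8.71% were lower at an unadjusted p under 0.05, and 12.1% were lower without overlap. Between same-numbered libraries, CCNE2, E2F8 and CCND3 were lower with calcium throughout, CCND1 and RB1 were higher, and the others varied in direction. With the replicate block, 0 of 14686 genes were called. The interaction, the calcium difference with DES minus that without, was 2.40 for E2F1 (SE 0.51, adjusted p = 0.0310), 2.53 for E2F2 (SE 0.55, adjusted p = 0.0326), 1.81 for RBL1 (SE 0.47, adjusted p = 0.0598) and 1.36 for E2F8 (adjusted p = 0.260). For CCNE2 it was 0.24, with an interval of -1.90 to 2.38, the CCNE2 difference with calcium being -1.86 without DES and -1.61 with it. Called higher were 2 of 9 genes, where 1.25% of all genes were. The E2F1 interaction missed the threshold without control replicate 1 or 2, calcium replicate 1, DES replicate 2 or DES with calcium replicate 1 or 3 (adjusted p from 0.0627 to 0.0844), and that of E2F2 without any single one of these libraries, calcium replicate 2 or calcium replicate 3 (adjusted p from 0.051 to 0.0869). Neither passed with all 7 groups in 1 fit or with no filter. The RBL1 interaction passed without control replicate 3 (2.03, adjusted p = 0.0461), with quantile normalization (2.02, adjusted p = 0.0199) and by limma-voom (1.90, adjusted p = 0.0355).

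Cadmium added to DES gave no called change, and the only interaction called was that of CCND3. DES with cadmium against DES gave 0.48 for CCND3 (interval -0.16 to 1.13), -2.06 for CCNE2 (SE 0.75, adjusted p = 0.406), -0.71 for E2F1 (interval -2.92 to 1.5), -0.91 for E2F2 (interval -3.73 to 1.90) and -1.08 for E2F8 (interval -2.90 to 0.74). For RBL1, CCNE1, RB1 and CCND1 it lay between -0.36 and 0.17. By limma 0 of 9 genes passed and limma-voom called 0, where 0.238% of all genes were called lower, and 1 gene, CCNE2, was lower at an unadjusted p under 0.05, where 8.03% were. The groups overlapped for all 9 genes, while 10.9% of all genes were lower without overlap. Between same-numbered libraries, CCNE2 and E2F8 were lower with cadmium throughout, CCND3 was higher, and the others varied in direction. With the replicate block, 0 of 14686 genes were called. Without DES with cadmium replicate 2, the library that stood apart, E2F1 was at 0.43, E2F2 at 0.52, E2F8 at -0.30, CCNE2 at -2.01, CCND1 at 0.48, CCND3 at 0.55, CCNE1 at 0.13, RBL1 at -0.05 and RB1 at -0.01, so the sign of the E2F1 and E2F2 values rested on that library, and 0 genes passed. DES with cadmium replicate 1 held the highest CCND1 and CCND3 FPKM of all libraries, and the lowest ratio of library size to fragments on genes (0.693). Without it 0 genes passed, CCND1 was at -0.36, CCND3 at 0.27, RB1 at 0.66, E2F1 at -1.25 and E2F2 at -1.57, and the other 4 lay between -1.63 and -0.25. The CCND3 interaction was 1.57 (SE 0.33, adjusted p = 0.0485), a difference of -1.08 with cadmium alone and 0.48 with cadmium and DES, and it was the 1 of 9 genes called higher, where 0.238% of all genes were. It was 1.63 (adjusted p = 0.0415) without DES with cadmium replicate 2 and 1.56 (adjusted p = 0.0897) without cadmium replicate 3, and 1.35 (adjusted p = 0.0549) without DES with cadmium replicate 1. It missed the threshold without 8 of the 12 libraries taken 1 at a time: each control replicate, cadmium replicate 2 or 3, DES replicate 2 or 3, or DES with cadmium replicate 1 (adjusted p from 0.0549 to 0.146). With no filter, with a filter of a mean of at least 2 FPKM, or by limma-voom it did not pass. The interactions of E2F1 (2.06, interval -0.98 to 5.10) and E2F2 (2.14, interval -1.57 to 5.85) with cadmium did not pass and had wide intervals. They were 1.02 and 0.91 without cadmium replicate 3, 1.52 and 1.48 without DES with cadmium replicate 1, and 3.19 and 3.58 without DES with cadmium replicate 2. Their size thus moved with each of these libraries, and neither passed in any of these fits.

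**Figure D3:**
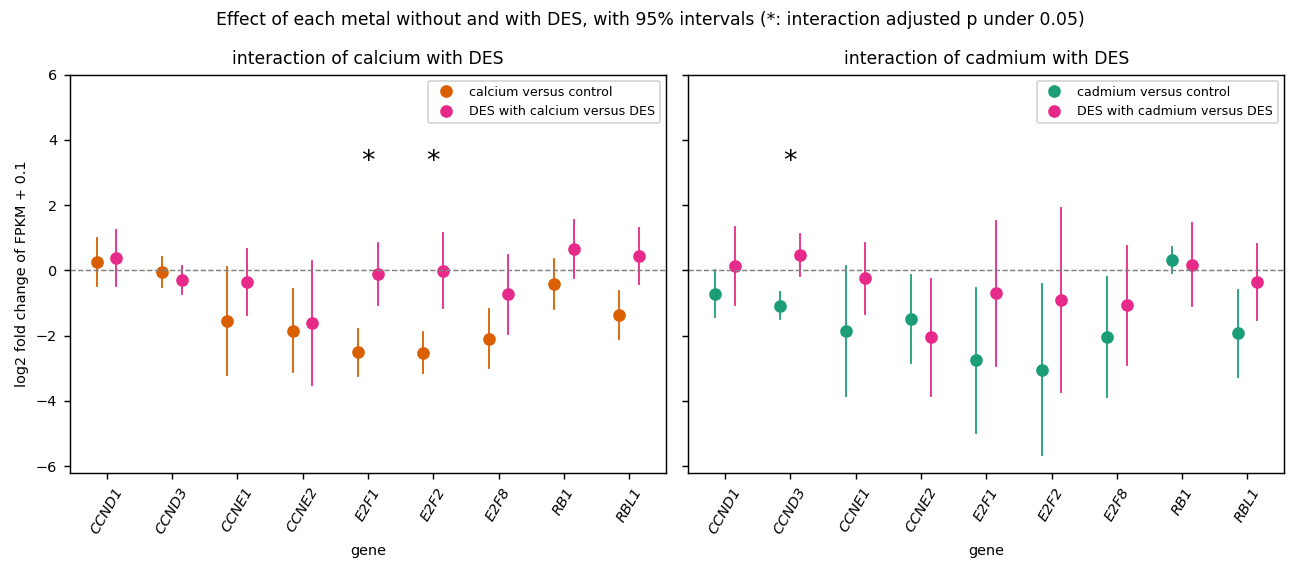
Log2 fold change of FPKM + 0.1 for calcium (left) and cadmium (right), without DES against control and with DES against DES alone, with 95% intervals from limma and an asterisk for an interaction with an adjusted p under 0.05. E2F1 and E2F2 carry it for calcium, at -2.52 and -2.53 without DES and -0.12 and -0.01 with it, and CCND3 for cadmium.

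The ratio of E2F1 to RB1, the factor to its inhibitor, was 4.21, 5.05 and 4.95 in the control libraries (4.73 ± 0.459, SD, n = 3). It was 1.64, 1.69 and 0.471 with calcium, 2.30, 0.609 and 0.118 with cadmium, and 1.35, 2.67 and 1.79 with GSK4716, and all 9 of these libraries lay below control. DES gave 6.15, 2.08 and 3.32, overlapping with control, DES with calcium 2.95, 1.28 and 2.22, all below control, and DES with cadmium 7.91, 0.295 and 2.84, overlapping with it. RB1 to RBL1 moved the other way, from 2.46 to 3.98 in control to 4.35 to 8.12 with calcium, 6.04 to 36.5 with cadmium, 6.74 to 7.50 with GSK4716 4.44 to 5.17 with DES, 4.89 to 6.52 with DES and calcium and 4.11 to 14.8 with DES and cadmium, each above all control libraries. Cadmium replicate 3 gave the highest of these ratios and stands apart from the other libraries, and the 2 other cadmium libraries were also above control. The summed D-type to summed E-type cyclins were at 9.74 to 25.3 in control and at 41.6 to 126 with calcium and 26.8 to 41.4 with GSK4716, also without overlap, and at 22.9 to 55.2 with cadmium and 10.1 to 83.0 with DES, with overlap. They were at 31.9 to 227 with DES and calcium and 40.0 to 219 with DES and cadmium, above control. CCNE2 made up 31.5% to 86.7% of the E-type sum.

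**Figure D4:**
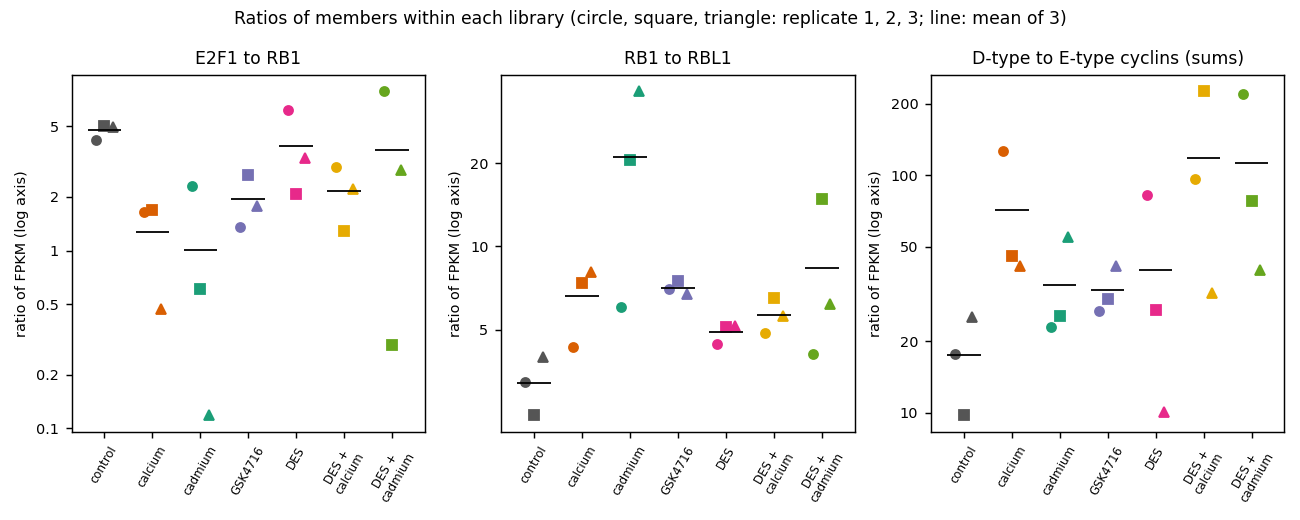
Ratios of FPKM within each library on a log axis for E2F1 to RB1, RB1 to RBL1 and summed D-type to summed E-type cyclins, with a line for the mean of 3. The control libraries hold the lowest RB1 to RBL1 ratios, 2.46 to 3.98, and E2F1 to RB1 ratios of 4.21 to 5.05.

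Genes of DNA replication that E2F factors are known to drive were lower with calcium as well. Of these genes, CDC6, FEN1, MCM6, MCM7, PCNA and TYMS are in the study's own list of genes lower with calcium, cadmium and GSK4716. That list was picked from these libraries, so their direction is not independent evidence. Of 24 tested genes of DNA replication, 21 fell with calcium, where 2.53% of all genes were called lower. All 24 had calcium libraries below control, where 13.6% of all genes did, and the median difference was -1.88 against -0.01 over all genes. The count called lower was 0 without control replicate 1, 4 without control replicate 2, and 6, 8 and 11 without calcium replicates 1, 2 and 3. It was 2 with no filter or with all 7 groups in 1 fit, while the median without single libraries lay between -2.07 and -1.59. MCM2, a subunit of the replicative helicase, fell by 2.65 on the log2 scale (adjusted p = 0.0208) and CDC45, its partner, fell by 2.49 (adjusted p = 0.0192). With cadmium, limma called 0 of the 24 and limma-voom 0, with a median of -2.21. At an unadjusted p under 0.05, 18 were lower, where 12.4% of all genes were. Without cadmium replicate 3, 0 were called, 19 were lower at that level, where 11.6% of all genes were, and the median was -1.37. Without cadmium replicate 1, 14 were called lower, against 5.50% of all genes. With GSK4716, limma called 0 and limma-voom 13, against 0.313% of all genes, with a median of -1.23. At an unadjusted p under 0.05, 23 were lower, where 8.69% of all genes were. With DES alone 3 of the 24 fell, where 12.9% of all genes were called lower, FEN1, which trims Okazaki fragments (-1.59, adjusted p = 0.00512), PCNA, the replication clamp (-1.01, adjusted p = 0.0324), and UHRF1 (-0.98, adjusted p = 0.0323), and 1 rose, SLBP, which binds histone mRNA (0.99, adjusted p = 0.00574). The share of all genes called higher with DES was 16.7%. The DES count called lower thus lay at its background, and that called higher did not exceed it. Leaving out single libraries gave 1 to 3 called lower. The median with DES was -0.08. The interaction with calcium was called higher for 16 of 24, against 1.25% of all genes, with a median of 2.01. This count was 6 without control replicate 1, DES replicate 2 or DES with calcium replicate 1, 7 without control replicate 2, 8 without DES replicate 3, 9 without DES with calcium replicate 3 and 10 without calcium replicate 1, and it was 1 with no filter and 0 with all 7 groups in 1 fit. For the interaction with cadmium, 0 of 24 were called and the median was 1.43, or 0.69 without cadmium replicate 3, 2.63 without DES with cadmium replicate 2 and 0.92 without DES with cadmium replicate 1. Among RefSeq windows, 13 of the 21 list genes that had one held the E2F letters shown above. Of all tested genes with a window, members left out, 633 held these letters and 8512 did not.

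By library, the median log2(FPKM + 0.1) of these 24 genes was 4.72, 5.11 and 4.39 in control, 2.50, 2.82 and 2.08 with calcium, 3.93, 2.14 and 0.24 with cadmium and 3.04, 3.47 and 2.98 with GSK4716. The DES libraries were at 4.55, 4.39 and 4.47. The G2/M list, 12 genes of mitosis, behaved less evenly: it was at 2.62, 2.74 and 3.83 with calcium, against 4.21, 4.59 and 4.10 in control, and at 3.79, 3.97 and -1.85 with cadmium, so that its low mean with cadmium was that of replicate 3. Of the 12, calcium lowered 1 by limma (CDC20, -1.37, adjusted p = 0.0258) (6 without calcium replicate 3, 1 without calcium replicate 2, and 0 when any other single library was left out) and 10 by limma-voom, which called 4.21% of all genes lower, and DES raised 4, against 16.7% of all genes, led by UBE2C (1.16, adjusted p = 0.00614) and KIF20A (1.01, adjusted p = 0.0325). With cadmium 0 of the 12 passed by limma, by limma-voom or at an unadjusted p under 0.05, where 12.4% of all genes were lower at that level. With GSK4716 the counts were 0, 0 and 3, the 3 being lower, where 8.69% of all genes were. The median difference of the 12 with cadmium was -2.26, and -0.27 without cadmium replicate 3. For cadmium added to DES it was -1.79, and 0.05 without DES with cadmium replicate 2 and -2.76 without replicate 1.

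**Figure D5:**
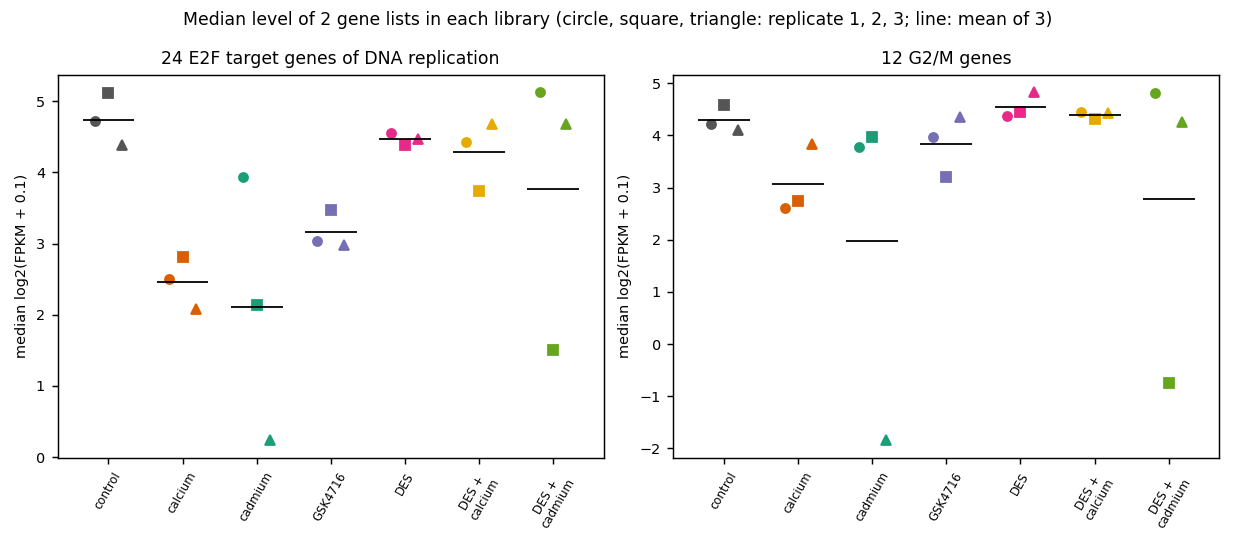
Median log2(FPKM + 0.1) of 24 E2F target genes of DNA replication and of 12 G2/M genes in each library, with a line for the mean of 3. E2F target medians are 4.39 to 5.11 in control and 2.08 to 2.82 with calcium, and cadmium replicate 3 and DES with cadmium replicate 2 lie far below the others in the G2/M panel.

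Among the partners of the cyclins, CDK4, the kinase of D-type cyclins, fell with calcium (-0.75, adjusted p = 0.0405), as did CKS1B, a CDK subunit (-1.31, adjusted p = 0.00951), and CDC25A, the phosphatase that activates CDK2 (-1.69, adjusted p = 0.0322). These were 3 of 8 tested genes of the list, where 2.53% of all genes were called lower, and the median was -0.69, against -0.01 over all genes. The count was 0 without control replicate 1 or 2 and 1 without calcium replicate 1. CDK2 (-0.64, adjusted p = 0.128) and the S-phase cyclin CCNA2 (-1.44, adjusted p = 0.0618) did not pass. CDK6, the other kinase of D-type cyclins, was at 0.173 to 0.766 FPKM and was not tested. With DES 4 of the 8 rose, against 16.7% of all genes, among them CDK7, a kinase that activates CDKs (1.03, adjusted p = 0.00946), and CDC25A fell (-1.30, adjusted p = 0.00949). With cadmium limma called 0 and limma-voom 1, where limma-voom called 1.66% of all genes lower. At an unadjusted p under 0.05, 4 were lower with cadmium, against 12.4% of all genes, or 3 without cadmium replicate 3, against 11.6%. With GSK4716 limma and limma-voom called 0, with 4 lower and 1 higher at that level, where 8.69% of all genes were lower.

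Of 8 other E2F, DP and pocket protein genes, calcium lowered E2F7, the atypical relative of E2F8 (-2.24, adjusted p = 0.0457), and DES lowered E2F3, an activator E2F (-2.06, adjusted p = 0.00232). Each was 1 of 8, where 2.53% of all genes were called lower with calcium and 12.9% with DES, so the DES count lay at its background. E2F3 was at -0.16 with calcium (adjusted p = 0.737) and E2F7 at -1.37 with DES (adjusted p = 0.0991), and RBL2, the third pocket protein gene, was not called in any of the comparisons. In the MuvB list, 3 of 7 genes fell with calcium: FOXM1 (-1.77, adjusted p = 0.0236), MYBL2, the activator that E2F induces (-1.66, adjusted p = 0.0219), and LIN9 (-1.54, adjusted p = 0.0306). The calcium count stood against 2.53% of all genes, and it was 0 without control replicate 1 or 2 or calcium replicate 1 or 2 and 1 without control replicate 3. The E2F7 call with calcium was lost when any 1 of the 6 libraries was left out. With DES 1 of the 7, LIN52, fell, a share near the 12.9% of all genes. Among 7 CDK inhibitor genes, calcium raised CDKN1A, which encodes p21 (3.15, adjusted p = 0.0120), and CDKN2B, which encodes p15 (1.90, adjusted p = 0.0419), where 4.60% of all genes were called higher, and lowered CDKN2C, which encodes p18 (-2.33, adjusted p = 0.0176). CDKN1A was at 7.48, 12.6 and 11.9 FPKM in control and 57.9, 129 and 108 FPKM with calcium, without overlap. CDKN2B is in the study's own list of genes higher with calcium, cadmium and GSK4716, so its direction is not independent evidence. Without control replicate 1 or 2, 0 of these 7 were called with calcium, and 1 was called higher without control replicate 3 or calcium replicate 1 or 3. The call of CDKN2C was also lost without calcium replicate 2. DES raised CDKN1C, encoding p57 (2.20, adjusted p = 0.0288), and CDKN2A (0.80, adjusted p = 0.0374), 2 of 7 where 16.7% of all genes were called higher. That count was 0 without control replicate 1 or 3 or DES replicate 2, 1 without control replicate 2 or DES replicate 3 and 4 without DES replicate 1. Of 8 ubiquitin ligase genes for cyclins and E2F1, CCNF, whose product marks E2F proteins for degradation, fell with calcium (-1.13, adjusted p = 0.0323) and with DES (-1.33, adjusted p = 0.010). With DES CUL3, a ligase scaffold, also fell (-0.64, adjusted p = 0.0395) and SKP1, a subunit of the SCF ligase, rose (0.82, adjusted p = 0.0258), so 2 of 8 were called lower and 1 higher, near the 12.9% and 16.7% of all genes. The CCNF call with calcium was kept without control replicate 3 and lost when any of the other 5 libraries was left out. With DES the count called lower in this list was 3 without DES replicate 1 and 1 when any other single library was left out, and that called higher was 0 without any control replicate or DES replicate 2. Over the 30 genes of these 4 lists limma called 0 with cadmium, with 12 past an unadjusted p of 0.05, where 25.9% of all genes were in either direction. With cadmium limma-voom called 1, lower, where it called 1.66% of all genes lower. For GSK4716 limma called 0, with 11 past an unadjusted p of 0.05, where 16.4% of all genes were, and limma-voom called 0. Without cadmium replicate 3, limma called 0 of the 30 and 0 of the 8 partner genes with cadmium, and 10 of the 30 were past an unadjusted p of 0.05, where 23.4% of all genes were.

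Over the 21 libraries, the log2(FPKM + 0.1) values of the E2F genes ran together, with Pearson's r of 0.97 for E2F1 and E2F2, 0.92 for E2F2 and E2F8 and 0.87 for RBL1 and E2F8. CCND1 and RB1 had r of -0.63, and CCND3 and RB1 of -0.65. These are descriptions over libraries that share groups, depth and the 2 libraries that stood apart. Of 14677 other tested genes, those most like E2F1 were TEDC2 (r = 0.967), RMI2 (0.962) and KIF24 (0.959), and those most like E2F2 were KIF24 (0.970), FANCD2 (0.968) and ARHGEF39 (0.965). E2F8 was most like ATAD2 (0.942), BRCA1 (0.940) and E2F7 (0.914), and RBL1 most like RAD18 (0.934), UHRF1 (0.918) and AC112777.1 (0.905). For the E-type cyclins they were TEDC2 (0.913), C19orf57 (0.889) and POLE (0.882) with CCNE1, and FBXO5 (0.913), C4orf46 (0.866) and FIGNL1 (0.831) with CCNE2. The D-type cyclins and RB1 had other neighbours: ARF5 (0.954), EIF5A (0.953) and PA2G4 (0.949) for CCND1, PRKAR1B (0.925), CCDC106 (0.918) and PIGS (0.918) for CCND3, and SENP7 (0.949), TRIQK (0.938) and LNPK (0.935) for RB1. No gene was named in both the E2F and the D-type cyclin sets of neighbours.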

How the data were processed

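RNA was sequenced by the authors from 21 libraries of MDA-MB-453 cells, 3 in each of 7 groups. Per the submitters' processing notes, HISAT2 2.0.5, featureCounts 1.5.0-p3 and GRCh38.p14 were used, and the paper's methods name DESeq2 and edgeR for the authors' own comparisons. The deposited values are FPKM per gene, made by the authors; gene lengths and positions are columns of the same deposited table. Because FPKM values are not counts, limma 3.58.1 (R 4.3.3, empirical Bayes with a mean trend) was fitted to log2(FPKM + 0.1) over 14686 genes with a mean of at least 0.5 FPKM, separately for each comparison, with the threshold of 0.05 on Benjamini-Hochberg adjusted p-values. "Called" means past that threshold. Each FPKM value was a whole number of fragments within 0.01 fragment after rescaling by gene length, in 100% of values, and limma-voom was run on these recovered fragments as an alternative.

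The limma fit was also run on simulated counts that had the same dispersion for every gene and group. That setting held no far library, so it does not show how the fit behaves with the unequal spreads seen here. Members and gene lists were chosen with earlier results of these data known. All 10 members are named; of each other list, at most the 2 called genes with the largest change per comparison are named, or 2 with non-overlapping groups, and CDK2, CDK4, CDK6, E2F3, E2F7, RBL2, CCNA2 and MYBL2 always, and for each member its 3 most correlated genes. UHRF1, SLBP, LIN9, CDKN2B, CUL3 and SKP1 complete short lists and were named after their values were seen. Pairing by replicate number was checked by correlating deviations from group means. Same-numbered libraries matched best in 3 of 3 pairs in DES with calcium against DES (r = 0.132, 0.103 and 0.280 for replicates 1, 2 and 3). They did so in 2 pairs in DES with cadmium against DES (0.472, 0.121 and 0.313), cadmium against control and GSK4716 against control. The number was 1 in calcium against control and 0 in DES against control. Alternatives were another pseudocount, filter, scaling or normalization, 1 fit of all groups, the replicate block, limma-voom and leaving out each library; scaling by total fragments was chosen after seeing the data. Figures were drawn with matplotlib 3.10.9. CCND2 was left out of tests, and E2F letters were searched on both strands of RefSeq promoter windows on GRCh38.p14.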

Additional observations from a re-analysis of the deposited data

Results flagged for a closer look

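In 3 cases the effect of a metal on a member differed between cells without and with DES by a test of the difference itself, the interaction term in limma with Benjamini-Hochberg adjustment over 14686 genes. The calcium difference of E2F1 was -2.52 without DES and -0.12 with it, an interaction of 2.40 on the log2 scale (adjusted p = 0.0310). For E2F2 these differences were -2.53 and -0.01, an interaction of 2.53 (adjusted p = 0.0326). The cadmium difference of CCND3 was -1.08 without DES and 0.48 with it, an interaction of 1.57 (adjusted p = 0.0485). All 3 calcium libraries lay below all 3 control libraries for E2F1 and E2F2, and the DES with calcium and DES libraries overlapped. Each of the 3 interactions missed the threshold when some libraries were left out singly, as given beside each result. With 3 libraries in a group, no test for a single far library within a group was run.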

How the results depend on the processing

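Each alternative changed 1 choice, except limma-voom, which changed the input, the scaling and the weighting together. With calcium 3 members were called by limma, and 0 with no filter on low values, 5 with quantile normalization, 0 with all 7 groups in one fit and 5 with limma-voom on recovered fragments. Scaling by total fragments on genes added RBL1 for calcium. With cadmium 0 were called, and 1 with a higher filter (mean of 2 FPKM or more), 2 with all 7 groups in one fit and 1 with limma-voom, and with GSK4716 0 were called and 2 with limma-voom. With DES 2 were called, and 0 with no filter, 0 with all 7 groups in one fit and 1 with the replicate block, where E2F1 had an adjusted p of 0.0602. The calcium interaction called 2, and 0 with no filter and 0 with all 7 groups in one fit. For both DES and the calcium interaction 3 were called with quantile normalization and with limma-voom, RBL1 being added. The cadmium interaction called 1, and 0 with no filter, 0 with the higher filter and 0 with limma-voom. For the alternative with no filter, 45127 genes entered the adjustment in place of 14686; the causes of the other differences were not tested. Leaving out single libraries gave 0 to 3 called members for calcium, 0 to 4 for cadmium, 0 for GSK4716, 0 to 3 for DES, 0 for calcium or cadmium added to DES, 0 to 3 for the calcium interaction and 0 to 1 for the cadmium interaction. For DES, leaving out single libraries gave 2 to 5 raised G2/M genes, 2 to 3 raised partner genes of the cyclins, 1 to 3 lowered E2F target genes and 0 to 1 lowered MuvB genes. The replicate block left 0 called for calcium and for cadmium added to DES, 2 for calcium against control, 2 for the calcium interaction and 1 for the cadmium interaction. Over 72 fold changes and interactions of single members and 1172 alternative values, 1094 stayed on the same side of the threshold, 56 lost a call, 22 gained one and 0 called values changed sign. Of the 1094, 40 that were not called changed sign, in 15 results with a main size of at most 0.91. Scaling by total fragments on genes, chosen after seeing the data, shifted the median of all genes by -0.11 for calcium, -0.17 for DES, -0.13 for calcium added to DES, -0.20 for cadmium added to DES and -0.15 for the cadmium interaction. Quantile normalization shifted it by -0.14 for DES, 0.15 for cadmium added to DES, 0.13 for the calcium interaction and 0.21 for the cadmium interaction. Scaling by total fragments split the calls over all genes into 546 higher and 562 lower for calcium, against 675 and 371, and into 1861 and 2539 for DES, against 2447 and 1893, and into 14 and 0 for cadmium, against 19 and 3. Quantile normalization split calcium into 747 and 634, DES into 2052 and 2529, cadmium added to DES into 15 and 58, against 4 and 35, and the cadmium interaction into 69 and 92, against 35 and 138. Depth limits CCNE1 and E2F2, which rested on as few as 7 and 10 fragments.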
